A study of Sus scrofa with 15 samples.

Results

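The miRNAs of peripheral whole blood were compared between domestic pigs of 60 days, the stage the submitters call childhood, and pigs of 360 days, which they describe as sexually mature. The comparison took the 6 libraries labelled with these ages, 3 per age, out of 15 in the series. The other 9 libraries, from days 0, 30 and 180, entered the fit to give 1 shared estimate of the spread between libraries. The labels name no treatment, breed, sex, diet or housing for any group, and do not say whether the same animals were bled at both ages. Replicates are described as biological, 3 for each stage. All 295 listed miRNAs were used except miR-199b-3p and miR-9-1, whose counts repeat those of miR-199a-3p and miR-9 in every library, which left 293.

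MicroRNAs are short RNAs that guide Argonaute proteins to messenger RNAs through their seed, the bases near the 5′ end, and lower the output of those messages. Members of a family share a seed, and many miRNA genes lie in clusters that are transcribed together. In whole blood the pool is dominated by red cells, which keep miRNAs from their nucleated precursors, with smaller parts from platelets, lymphocytes, granulocytes and monocytes. In such bulk samples, fewer cells of a type and less RNA per cell cannot be told apart.

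Both ages carried the miRNAs that define blood. The red-cell miRNA miR-451, which is processed by Argonaute 2 without Dicer, held 34.5%, 36.9% and 31.4% of the counts in the day 60 libraries and 28.8%, 39.5% and 37.7% in those of day 360. The lymphocyte miRNA miR-150 had a mean of 1572 ± 323.5 normalised CPM (counts scaled to a common library size) at day 60 and 2078 ± 475 at day 360 (SD, n = 3). Neither epithelial miRNA listed, miR-205 or miR-429, had enough counts to be tested. Totals of the 6 libraries ran from 7655192 to 9977755 counts, with 249 to 255 miRNAs detected at day 60 and 230 to 244 at day 360. A count of 0 allows up to 3 counts, that is 0.302 to 0.326 normalised CPM at day 60 and 0.415 to 0.586 at day 360, counting error only.

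The libraries of day 360 were the less alike. Replicates 2 and 3 of that age differed more than 4-fold in 25.6% of the tested miRNAs, 39 of them higher in replicate 2 and 16 higher in replicate 3. Other pairs of the same age did so in 2.79% to 9.30%. The median absolute log2 difference was 1.18 between replicates 2 and 3 of day 360, and 0.729 and 0.685 for the other pairs of that age. It was between 0.33 and 0.554 for pairs of day 60 libraries. Among the miRNAs highest in day 360 replicate 2 were miR-20a, at 1793 normalised CPM beside 384 and 201 in replicates 1 and 3, and miR-30e-5p, at 2911 beside 749 and 317.

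Scaling also separated the ages. TMM factors, which correct library totals for a few very abundant RNAs, averaged 1.14 ± 0.0425 at day 60 and 0.699 ± 0.0281 at day 360 (SD, n = 3). On the TMM scale the median log2 fold change over all 215 tested miRNAs was 0.02. On library totals alone it was -0.685, so a level given as a share of counts falls for most miRNAs where the TMM level does not. At day 360 the 10 most abundant miRNAs together held 85.5% ± 1.20 of the counts, and at day 60 78.1% ± 0.636 (SD, n = 3), with no overlap between the ages. Levels below are on the TMM scale unless a share of counts is named, and a log2 fold change is day 360 minus day 60.

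**Figure D1:**
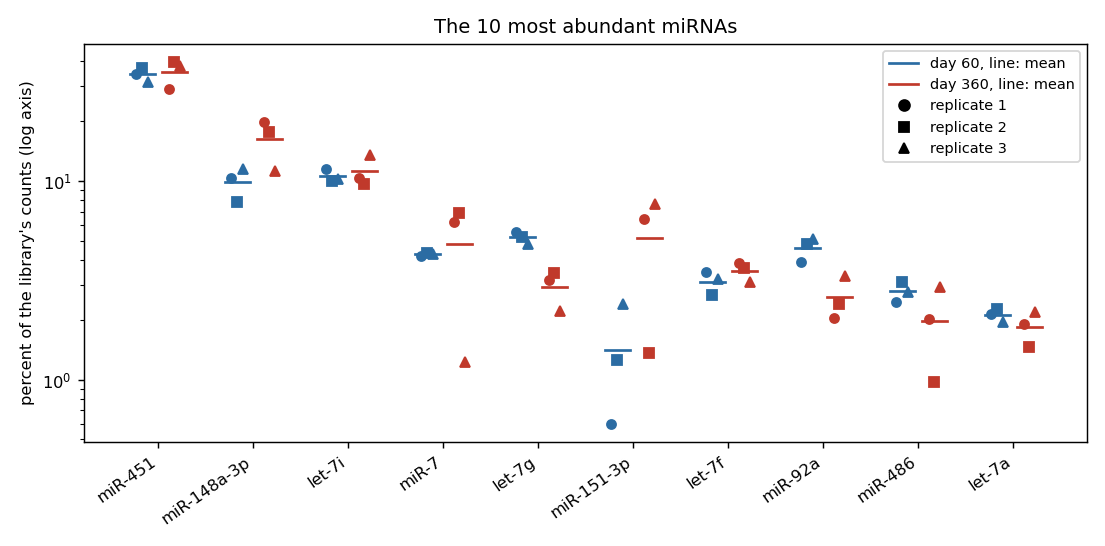
Percent of each library's counts (log axis) held by the 10 miRNAs of highest mean level over both ages; points are libraries, lines are means of 3, blue is day 60 and red is day 360. The share of miR-451 overlapped between the ages, while miR-151-3p ran from 0.599% to 2.4% at day 60 and from 1.36% to 7.68% at day 360.

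Of 215 miRNAs tested, 7 passed the test (3.26%; edgeR quasi-likelihood test, Benjamini-Hochberg adjusted p under 0.05). The 4 that rose (1.86% of those tested) were the muscle miRNAs miR-206 and miR-1, the HOX-cluster miRNA miR-10a-5p and miR-151-3p. The 3 that fell (1.40%) were both arms of miR-30a and the hypoxia-induced miR-210. At an unadjusted p under 0.05 there were 32 (14.9%), of which 11 were higher (5.12%) and 21 lower (9.77%) at day 360. On the TMM scale the libraries of both ages did not overlap for 24 miRNAs that were higher (11.2%) and 32 that were lower (14.9%) at day 360.

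The number and balance of the calls moved with the method. On library totals 23 miRNAs were called, 3 higher and 20 lower, and limma on log2(TPM + 1) called 19, 2 higher and 17 lower. DESeq2 called 22, 8 higher and 14 lower. Leaving out day 60 replicate 1 left miR-30a-5p as the single call, and leaving out day 360 replicate 3 left miR-206. Without day 0 replicate 3, a library outside the comparison, there were 22 calls, 6 higher and 16 lower. The count was 3 or 4 without day 60 replicate 2, day 360 replicate 1, day 0 replicate 1 or 2, any library of day 30, or day 180 replicate 1 or 2.

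**Figure D2:**
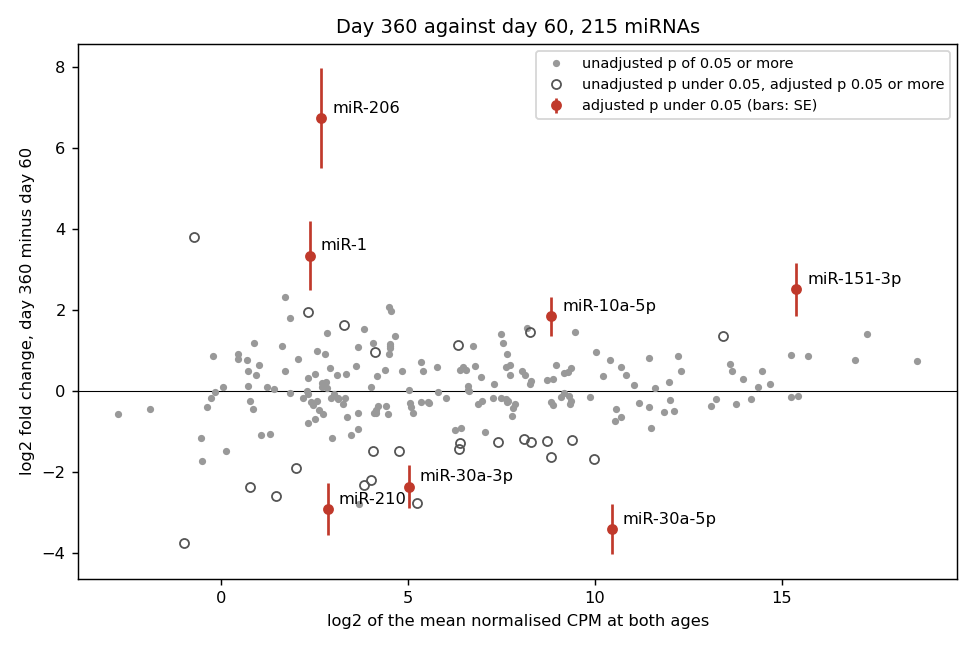
Log2 fold change of each of the 215 tested miRNAs against its level; red points with SE bars passed the test, open circles had an unadjusted p under 0.05 only. The changes of miR-206, miR-1 and miR-210 lie at low levels, and those of miR-151-3p and miR-30a-5p at high levels.

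The largest change with many counts was that of miR-30a-5p, a member of the miR-30 family, which restrains epithelial-mesenchymal transition and autophagy genes. Its normalised CPM was 2867, 1700 and 3138 at day 60 and 204.8, 349 and 171 at day 360. Each day 360 library lay below each day 60 library, in counts from 974 to 1787 against 16892 to 28830. The log2 fold change was -3.41 ± 0.62 (SE; 3 libraries per age; adjusted p = 0.00564 by edgeR). Without day 360 replicate 1 or 3 the change was -3.23 and -3.33, and the call was lost (adjusted p = 0.0855 and 0.0797).

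The 3p arm of the same hairpin, miR-30a-3p, is far less abundant and fell too. It stood at 45.8, 37.5 and 79.9 normalised CPM at day 60 and at 9.69, 6.06 and 16.1 at day 360, without overlap. Its log2 fold change was -2.35 ± 0.54 (SE; 3 libraries per age; adjusted p = 0.0262 by edgeR). This call was lost without any 1 of 8 libraries, namely day 60 replicates 1 and 3, each library of day 360, day 30 replicate 3, and day 180 replicates 1 and 2, and the adjusted p then reached 0.242. It also missed the threshold with only the 6 libraries of both ages (adjusted p = 0.0800).

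The other miR-30 members did not move with miR-30a to a call. The list of the family counts both arms of its hairpins and so is wider than the shared seed. Of its 10 tested members 2 fell, both from the miR-30a hairpin, and none rose. Over all tested miRNAs 1.40% were called lower. The median log2 fold change of the list was -0.461, beside 0.02 over all tested miRNAs. miR-30d, the most abundant member, had a mean of 20279 ± 3794 normalised CPM at day 60 and 21726 ± 878 at day 360 (SD, n = 3; log2 fold change 0.10 ± 0.41, SE), and its direction turned on library totals (-0.60). miR-30c-5p averaged 3130 ± 529 and 2393 ± 902. miR-30e-5p, whose sequence is nearly that of miR-30a-5p, overlapped between the ages at 1028, 1203 and 852 against 749, 2911 and 317. The low-level miR-30c-3p had 36, 12 and 35 counts at day 60 and 4, 1 and 5 at day 360 (log2 fold change -2.37 ± 0.75, SE; edgeR adjusted p = 0.0849). How reads that match several family members were assigned is not given in the sources used here.

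A ratio of counts inside a library does not depend on the scaling between libraries. On this measure the log2 ratio of miR-30a-5p to miR-30d was -2.86, -3.26 and -2.92 at day 60 and -6.79, -5.92 and -6.96 at day 360. The log2 ratio of miR-30a-5p to miR-30e-5p was 1.48, 0.499 and 1.88 at day 60 and -1.87, -3.06 and -0.893 at day 360. In each day 60 library miR-30a-5p thus had more counts than miR-30e-5p, and in each day 360 library fewer. These ratios, like the others below, were chosen after the levels were seen and were not tested.

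At the ages outside the comparison, miR-30a-5p stood at 1782, 2275 and 3824 normalised CPM at day 0, where replicate 3 lay above and the others within the range of day 60, and averaged 978 at day 30, below day 60. At day 180 it was at 515, 454 and 2330, so replicate 3 of that age lay within the range of day 60 and the other libraries lay below it.

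miR-210, the miRNA that the hypoxia-inducible factors induce, was at 14.4, 17.6 and 6.42 normalised CPM at day 60 and at 3.46, 0.977 and 0.527 at day 360. In counts the day 360 libraries held 25, 5 and 3, and those of day 60 held 140, 175 and 59. The ages did not overlap, and the log2 fold change was -2.91 ± 0.64 (SE; 3 libraries per age; adjusted p = 0.0249 by edgeR). At day 180 it stood at 3.16, 2.14 and 2.14 normalised CPM, also below each day 60 library. At day 0 and day 30 it averaged 127 and 42.1, with each library above each of day 60, so the level was already lower by day 60. Leaving out day 60 replicate 1 or 2 or day 360 replicate 3 ended the call, at adjusted p between 0.0553 and 0.0797, and so did the fit to the 6 libraries (adjusted p = 0.0875). Without day 360 replicate 1 the change was -3.97.

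Of the 4 tested muscle miRNAs 2 rose, both at very low levels, and none fell. Over all tested miRNAs 1.86% were called higher. The median log2 fold change of the list was 3.58, beside 0.02 over all tested miRNAs. The list was written with earlier results of these data known. miR-206, made in skeletal muscle fibres and myoblasts, had 1 count in each day 60 library and 97, 29 and 108 at day 360. Summed over the libraries of an age, 3 counts stood against 234, a normalised ratio of 125 (95% exact Poisson interval 42.2 to 609, counting error only). The fitted log2 fold change was 6.74 ± 1.23 (SE; 3 libraries per age; adjusted p = 0.00564 by edgeR), a value that depends on few counts at day 60. The call was lost without day 60 replicate 1 (adjusted p = 0.0547). It was also lost with limma on log2(TPM + 10), where the change was 0.87 (adjusted p = 0.122), a scale that shrinks the change of low miRNAs.

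miR-1, made in heart and skeletal muscle, had 8, 3 and 15 counts at day 60 and 81, 30 and 64 at day 360. In normalised CPM this was 0.822, 0.302 and 1.63 against 11.2, 5.86 and 11.2, again without overlap. Its log2 fold change was 3.35 ± 0.86 (SE; 3 libraries per age; adjusted p = 0.0438 by edgeR). The call was lost without any 1 of 10 libraries (adjusted p up to 0.244), namely day 60 replicates 1 and 2, day 360 replicates 1 and 3, day 0 replicates 1 and 2, each library of day 30 and day 180 replicate 2.

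miR-133a-3p, which is transcribed with miR-1, had 2 counts over the day 60 libraries and 22 over those of day 360, a normalised ratio of 17.6 (95% exact Poisson interval 4.33 to 154). It missed the threshold (edgeR adjusted p = 0.0578) and passed in 3 of the 24 alternatives that tested it, DESeq2 among them. miR-133b, the neighbour of miR-206 in the RefSeq gene table, was at 0.277 normalised CPM or below in all 6 libraries and was not tested. miR-499-5p, encoded in a myosin gene and the most abundant of the list, was at 42.5, 87.5 and 83.0 at day 60 and 99.99, 113 and 108 at day 360 (log2 fold change 0.59 ± 0.63, SE; -0.11 on library totals). The summed level of all 6 listed muscle miRNAs ran from 43.8 to 87.9 normalised CPM at day 60 and from 125 to 139 at day 360. This separation is on the TMM scale. Most of the sum was miR-499-5p, which did not rise on library totals. Where the muscle miRNAs in these blood libraries came from was not tested.

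The muscle miRNAs moved unequally within a library. The log2 ratio of miR-206 to miR-1 was -3, -1.58 and -3.91 at day 60, on 1 count of miR-206 each, and 0.260, -0.0489 and 0.755 at day 360. At day 180 miR-206 was at 3.30, 0.934 and 0.285 normalised CPM, below each day 360 library. Newborn blood held more than either later juvenile age, at a mean of 23.7 normalised CPM.

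miR-10a-5p, encoded among the HOXB genes and active in haematopoietic progenitors, was at 116, 169 and 309 normalised CPM at day 60. At day 360 it was at 435, 738 and 969, above each day 60 library on the TMM scale. As shares of counts the ages overlapped. Day 360 replicate 1 held 3141 of 9977334 counts, a smaller share than the 2836 of 8368653 in day 60 replicate 3. The log2 fold change was 1.85 ± 0.48 (SE; 3 libraries per age; adjusted p = 0.0438 by edgeR). The call depended on the scaling: on library totals the change was 1.16 (adjusted p = 0.213), a distance from the median of all miRNAs similar to that on the TMM scale. It was also lost without any 1 of 11 libraries (adjusted p up to 0.244), namely day 60 replicates 1 and 2, day 360 replicates 2 and 3, day 0 replicates 1 and 2, each of day 30 and day 180 replicates 1 and 2. The fit to the 6 libraries did not call it either (adjusted p = 0.0875).

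In the HOX loci list 1 of 4 tested members rose and none fell, beside 1.86% called higher over all tested miRNAs. miR-10b, encoded among the HOXD genes, stood at 10.5, 9.36 and 14.9 normalised CPM at day 60 and 20.2, 26.8 and 21.8 at day 360 (log2 fold change 0.98 ± 0.43, SE; edgeR adjusted p = 0.255). Inside the libraries the log2 ratio of miR-10a-5p to miR-10b was 3.47, 4.17 and 4.37 at day 60 and 4.43, 4.79 and 5.48 at day 360. miR-196b-5p, also of a HOX locus, went the other way at 15.1, 2.31 and 1.63 against 2.08, 1.76 and 1.23 normalised CPM, with overlap, and did not pass (log2 fold change -1.90 ± 0.76, SE; edgeR adjusted p = 0.173). The 3p arm of miR-10a averaged 1.002 ± 0.397 and 1.75 ± 0.754 normalised CPM (SD, n = 3). At day 180, miR-10a-5p was at 741, 706 and 316, of which replicate 3 lay near the highest day 60 library.

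miR-151-3p, which lies in an intron of the focal adhesion kinase gene and is abundant in platelets, had the largest log2 fold change of the 10 most abundant miRNAs. It was at 5062, 11028 and 21886 normalised CPM at day 60 and at 88816, 20302 and 108932 at day 360. The ages overlapped, since day 360 replicate 2 lay below day 60 replicate 3. The log2 fold change was 2.52 ± 0.65 (SE; 3 libraries per age; adjusted p = 0.0438 by edgeR). It was 3.10 without day 360 replicate 2 and 1.96 without day 360 replicate 3, and the call was lost without any 1 of 12 libraries (adjusted p up to 0.244), that is all but day 60 replicate 3, day 360 replicate 2 and day 0 replicate 3. The fit to the 6 libraries missed the threshold too (adjusted p = 0.0875). As a share of counts it averaged 1.42% ± 0.913 at day 60 and 5.16% ± 3.35 at day 360 (SD, n = 3).

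The 5p arm, miR-151-5p, had means of 86.2 (day 60) and 134 (day 360) normalised CPM. The log2 ratio of the 3p to the 5p arm was 6.05, 6.88 and 7.94 at day 60 and 8.83, 7.56 and 10.1 at day 360, which overlapped. Of the 15 tested members of the platelet and endothelial list, miR-151-3p was the 1 that rose, and none fell. Over all tested miRNAs 1.86% were called higher. miR-126-3p, the endothelial and platelet miRNA of the EGFL7 gene, was at 132.2, 179 and 104 normalised CPM at day 60 and 345, 202 and 234 at day 360 (log2 fold change 0.91 ± 0.45, SE; edgeR adjusted p = 0.334). miR-221-3p, which represses the receptor KIT in red-cell precursors, was at 602, 557 and 599 against 210, 359 and 183.2 (-1.23 ± 0.36, SE; adjusted p = 0.0578), and passed in 6 of 27 alternatives. Its other arm miR-221-5p and its cluster partner miR-222 overlapped between the ages (log2 fold changes -0.54 ± 0.43 and -0.23 ± 0.40, SE).

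**Figure D3:**
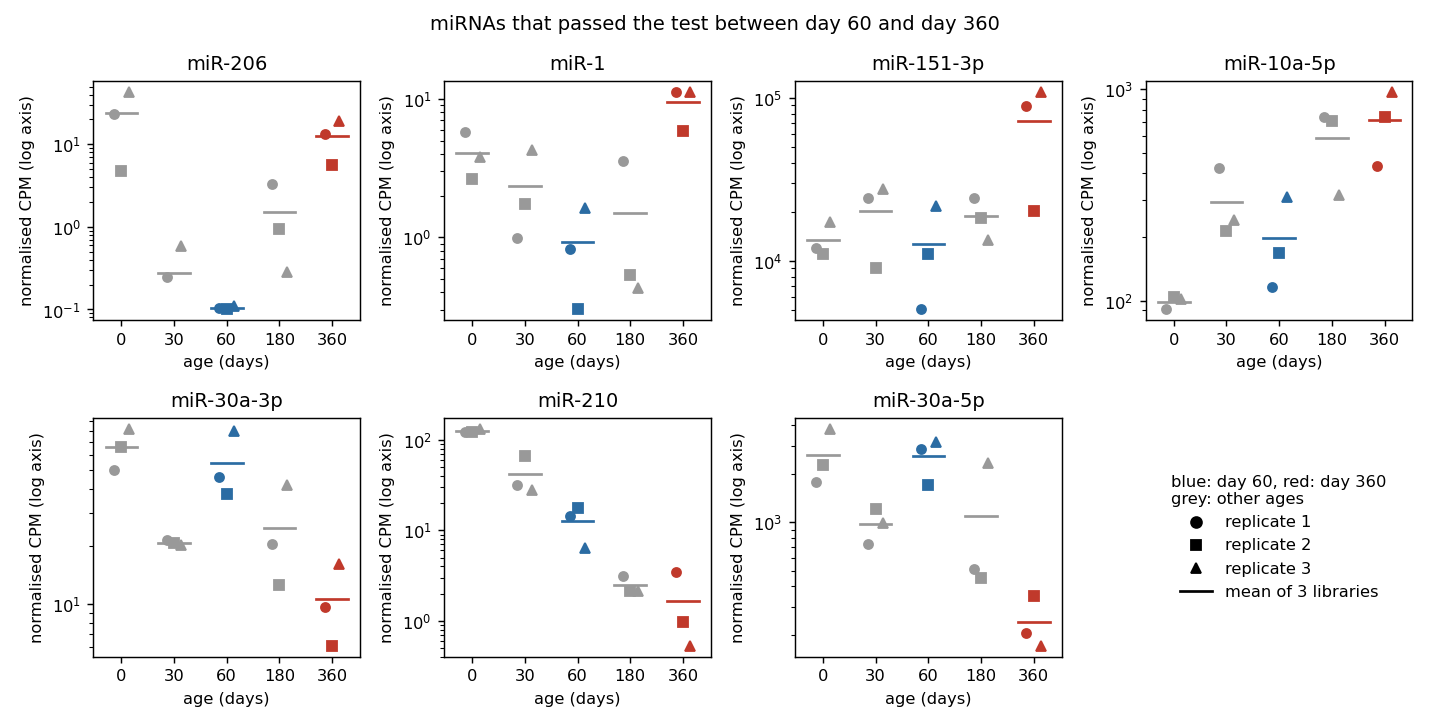
Normalised CPM (log axis) of the 7 miRNAs that passed the test, in every library at 5 ages; marks are replicates, lines are means of 3, blue is day 60, red is day 360 and grey the other ages. A library at 0 cannot be drawn on this axis, which concerns miR-206 at day 30. The ages compared overlap for miR-151-3p and for none of the other 6.

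A cluster on the lower side stood just outside the threshold. The miR-106a cluster is a paralogue of miR-17-92, a cluster that promotes proliferation of lymphoid progenitors. In the RefSeq gene table of assembly Sscrofa11.1, MIR106A, MIR18B, MIR20B-1, MIR19B-2, MIR92A-2 and MIR363-1 lie within 10 kb of each other. Of the 13 tested members of both clusters and their paralogues, none passed the test. At an unadjusted p under 0.05 there were 3, all lower at day 360 and all from the miR-106a cluster. Over all tested miRNAs 9.77% were lower at that cut.

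miR-20b was at 138.04, 37.0 and 22.9 normalised CPM at day 60 and at 7.20, 19.7 and 2.63 at day 360 (log2 fold change -2.75 ± 0.75, SE; 3 libraries per age; adjusted p = 0.0562 by edgeR). miR-363 was at 2608, 897 and 1099 against 493, 465 and 497 (-1.66 ± 0.47, SE; adjusted p = 0.0578). miR-106a was at 51.2, 16.8 and 10.9 against 4.71, 10.4 and 2.28 (-2.19 ± 0.71, SE; adjusted p = 0.0849). These 3 were picked by a low p, which makes overlap between the ages unlikely. None of them overlapped, as with 14.9% of all tested miRNAs on the lower side, and each was highest in day 60 replicate 1. Without that library the changes were -1.63, -1.06 and -1.28 (adjusted p = 0.343, 0.360 and 0.565). Without day 360 replicate 2 miR-20b stood at -3.72 and passed (adjusted p = 0.0184), and miR-106a at -2.85 did not (0.0518). miR-20b passed in 10 of 27 alternatives, miR-363 in 6 and miR-106a in 4. The remaining miRNA made only by this cluster, miR-18b, had 35, 12 and 1 counts at day 60 and 8, 3 and 0 at day 360, which overlapped.

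Their counterparts from miR-17-92 overlapped between the ages. miR-17-5p, the counterpart of miR-106a, had a mean of 976 ± 240 normalised CPM at day 60 and 881 ± 616 at day 360, and miR-20a, that of miR-20b, 531 ± 83.0 and 793 ± 871 (SD, n = 3), which turned lower on library totals (log2 fold change -0.17). miR-92a, which both clusters encode, averaged 40532 ± 6770 and 37099 ± 9354. The log2 ratio of miR-20b to miR-20a was -2.11, -3.91 and -4.26 at day 60 and -5.74, -6.51 and -6.25 at day 360. The log2 ratio of miR-106a to miR-17-5p was -4.50, -5.99 and -6.02 against -7.56, -7.17 and -6.83, and that of miR-363 to miR-92a -3.66, -5.56 and -5.40 against -5.85, -6.28 and -6.56. All 3 ratios were lower in each day 360 library than in each day 60 library, and all were highest in day 60 replicate 1.

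Day 180 lay below each day 60 library for these 3 miRNAs as well. miR-20b was at 10.2, 12.9 and 14.8 normalised CPM at day 180 and miR-106a at 5.41, 8.28 and 4.57. miR-363 was at 849, 415 and 335. The ages before day 60 were not alike for these miRNAs. miR-106a was at 5.14, 3.04 and 11.6 at day 0, where replicates 1 and 2 also lay below each day 60 library, and averaged 16.9 at day 30. miR-20b averaged 42.8 at day 0 and 41.2 at day 30, with each library within the range of day 60.

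**Figure D4:**
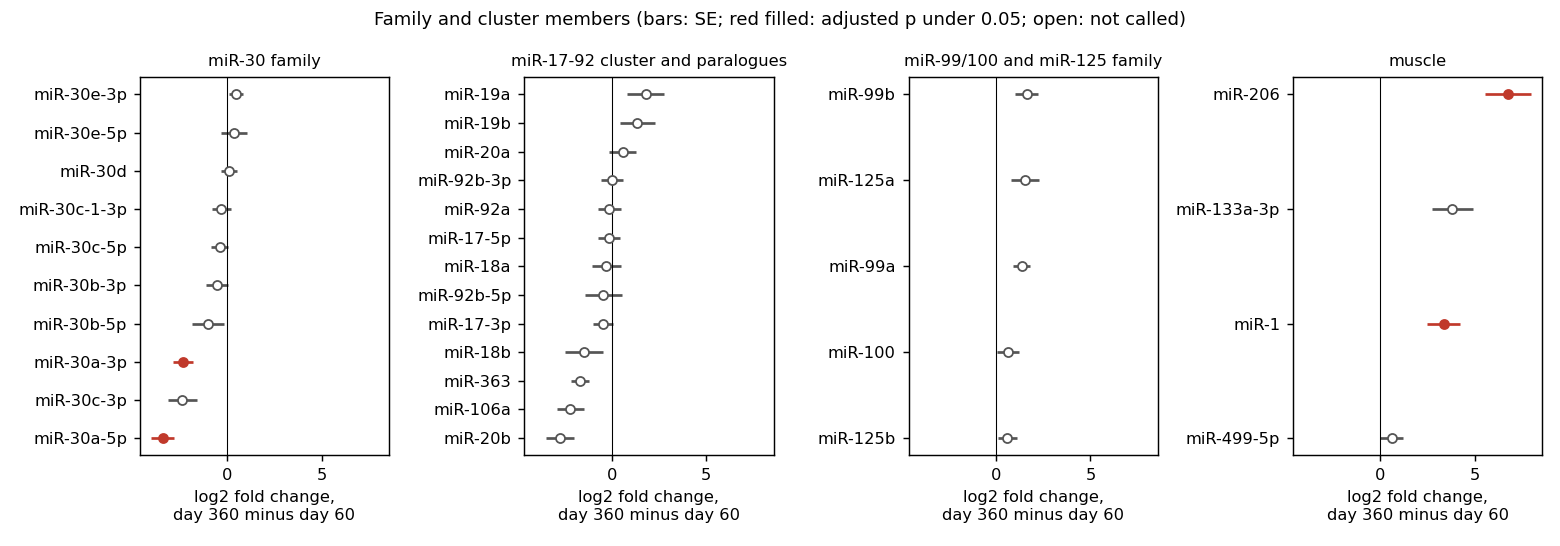
Log2 fold change (points) with SE (bars) of every tested member of 4 lists; filled red points passed the test. miR-30a-5p and miR-30a-3p stand at -3.41 and -2.35 in the miR-30 list, which counts both arms. miR-20b, miR-106a and miR-363 lie between -2.75 and -1.66. All 5 members of the miR-99/100 and miR-125 list lie above 0 on this TMM scale, 3 of them also on library totals.

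**Figure D5:**
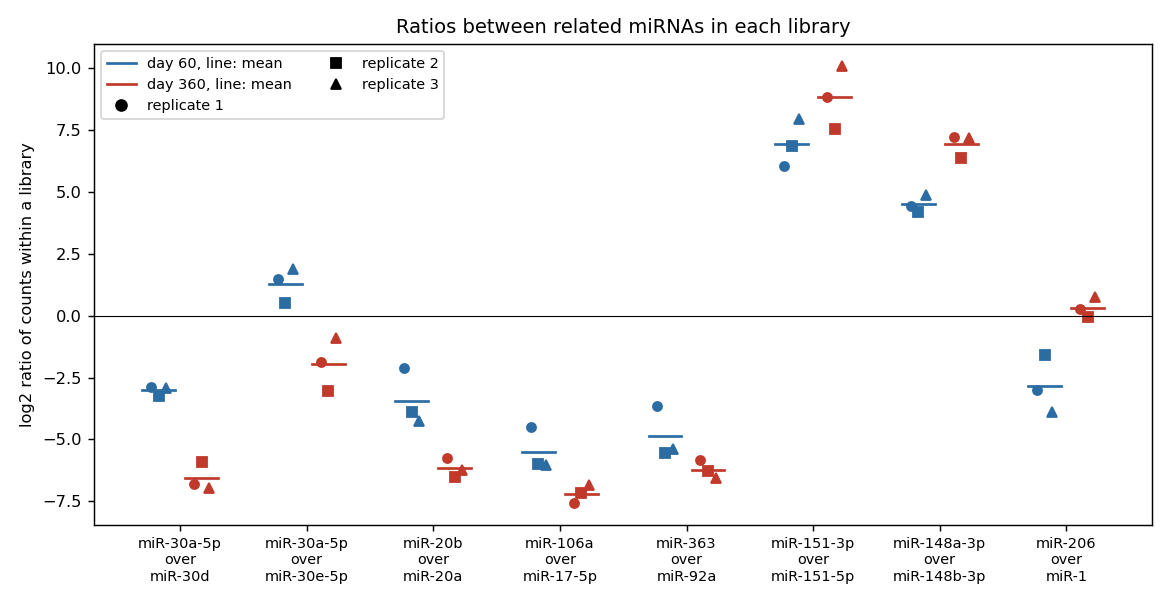
Log2 ratios of the counts of related miRNAs inside each library at day 60 (blue) and day 360 (red); marks are replicates and lines are means of 3. The ages do not overlap for miR-30a-5p over miR-30d, while they overlap for miR-151-3p over miR-151-5p.

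The miR-99/100 and miR-125 list holds miRNAs that act in haematopoietic stem cells, most of them encoded beside let-7 genes. None of its 5 tested members passed the test. All 5 log2 fold changes were above 0 on the TMM scale, with a median of 1.36, and 3 were above 0 on library totals, where miR-100 stood at -0.076 and miR-125b at -0.087. miR-99a, the abundant member, was at 4659, 6510 and 7392 normalised CPM at day 60 and 19992, 11539 and 15989.6 at day 360, without overlap (1.36 ± 0.44, SE; 3 libraries per age; adjusted p = 0.0849 by edgeR). miR-99b was at 3.29, 5.03 and 6.09 against 8.31, 7.23 and 29.1 (adjusted p = 0.146), and miR-125a at 5.76, 7.15 and 9.03 against 16.5, 22.9 and 24.2 (adjusted p = 0.327). The log2 ratio of miR-99a to its neighbour let-7c was 2.09, 2.02 and 2.55 at day 60 and 3.02, 3.52 and 2.64 at day 360.

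The let-7 family, whose members build up during differentiation, held no called member among 9 tested, with a median log2 fold change of 0.315. Its most abundant member let-7i was at 97007, 88008 and 92561 normalised CPM at day 60 and at 142277, 144660.0 and 190810.0 at day 360 (0.78 ± 0.49, SE; edgeR adjusted p = 0.499). let-7f averaged 27292 ± 3444 and 50599 ± 5865, and let-7a 18604 ± 1261 and 26395 ± 4527 (SD, n = 3). All 3 were separated on the TMM scale. As shares of counts, let-7i averaged 10.5% ± 0.811 and 11.1% ± 2.03, and let-7a 2.12% ± 0.170 and 1.85% ± 0.363, so the direction of let-7a depended on the scaling.

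No member of the erythroid list passed the test. The median log2 fold change of its 7 tested members was 0.754, and 6 were above 0, against 4 on library totals. miR-451 itself had a change of 0.75 ± 0.74 (SE; edgeR adjusted p = 0.680) with nearly the same share of counts at both ages. miR-486, encoded in the ankyrin 1 gene and made in red-cell precursors, averaged 24431 ± 3312 and 27879 ± 13345 normalised CPM, a direction that turned on library totals (log2 fold change -0.50). miR-182 was at 136.9, 173 and 178 at day 60 and 261, 689 and 391 at day 360 (1.46 ± 0.63, SE; adjusted p = 0.244). Its cluster partners miR-183 and miR-96-5p were both highest in day 360 replicate 2, at 74.4 and 13.7 normalised CPM, and overlapped between the ages.

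White-cell lists held no call either. None of 11 tested lymphoid members passed, with a median log2 fold change of -0.162, and none of 8 myeloid members, with a median of 0.25. miR-223, also written into the myeloid list, matched none of the 293 miRNAs kept, so the myeloid median is without it. miR-181a, a regulator of T-cell receptor sensitivity, had a mean of 4289 ± 193 normalised CPM at day 60 and 3021 ± 973 at day 360 (-0.51 ± 0.62, SE; edgeR adjusted p = 0.743). miR-146a-5p, which damps innate immune signalling, was at 2086, 1911 and 2005 against 1501, 1589 and 775 (-0.63 ± 0.35, SE; adjusted p = 0.405). Both were without overlap and lower at day 360. miR-24-3p, encoded by the clusters of miR-23 and miR-27, was at 438, 1803 and 732 against 2447, 697 and 1951 and overlapped.

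miR-148a-3p, the most abundant miRNA after miR-451 at day 360 and a repressor of DNA methyltransferase 1, was at 86852, 68778 and 103748 normalised CPM at day 60. At day 360 it was at 274109, 261490.0 and 158904, above each day 60 library on the TMM scale. Its shares of counts overlapped, at 10.3%, 7.81% and 11.4% at day 60 and 19.8%, 17.5% and 11.2% at day 360. It missed the threshold with a log2 fold change of 1.42 ± 0.79 (SE; 3 libraries per age; adjusted p = 0.405 by edgeR). It passed in 1 of the 26 alternatives that tested it, the edgeR fit to the 6 libraries of both ages (log2 fold change 1.47, adjusted p = 0.0471). The log2 ratio to its family member miR-148b-3p was 4.43, 4.19 and 4.87 at day 60 and 7.24, 6.38 and 7.19 at day 360.

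Lists of other families and tissues held no call apart from miR-210. None of 3 tested members of the miR-15/16 family passed, with a median log2 fold change of -0.318, and none of 3 in the miR-29 family, with a median of -0.538. In the miR-23/27/24 clusters none of 8 passed, and the median was 0.657. Of 4 tested liver miRNAs none passed, with a median of 0.958. miR-122, the defining miRNA of hepatocytes, was at 5.65, 12.6 and 12.3 normalised CPM at day 60 and 7.76, 57.1 and 5.79 at day 360, so replicate 2 stood apart. Of 6 tested brain miRNAs none passed, with a median of -0.018. The most abundant of them, miR-7, is among the 10 most abundant miRNAs of these libraries. It was at 35523, 38176 and 38844 normalised CPM at day 60 and 85618, 103462 and 17307 at day 360, so the ages overlapped and day 360 replicate 3 lay lowest (0.87 ± 0.83, SE; edgeR adjusted p = 0.660). Of 9 tested members of the hypoxia and innate response list 1 fell, miR-210, and none rose, beside 1.40% called lower over all tested miRNAs. The median of the list was -0.543. miR-127, the 1 tested member of the imprinted DLK1-DIO3 cluster, had a change of -1.73 and did not pass. On library totals the median log2 fold change turned negative in the myeloid (-0.461), platelet and endothelial (-0.0774), let-7 (-0.413) and miR-23/27/24 (-0.0182) lists.

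Further miRNAs with an unadjusted p under 0.05 did not pass. miR-22-3p, a regulator of erythroid and myeloid maturation, was at 882, 502 and 684 normalised CPM at day 60 and 220.5, 205.2 and 241 at day 360 (-1.63 ± 0.48, SE; edgeR adjusted p = 0.0578). miR-29a, a repressor of collagen genes, was at 1071, 809 and 923 against 372, 617 and 223.4 (-1.21 ± 0.40, SE; adjusted p = 0.0849). Both arms of miR-339 were lower, miR-339-3p by -1.46 ± 0.48 and miR-339-5p by -1.26 ± 0.44 (SE; adjusted p = 0.0849 and 0.107). miR-378b-3p stood at 24.5 ± 9.98 and 8.85 ± 2.88, and miR-7857-3p at 23.5 ± 12.6 and 4.69 ± 3.02 (SD, n = 3; adjusted p = 0.0849 and 0.0578). On the upper side, miR-2411 averaged 50.5 ± 12.2 and 112 ± 35.5 (adjusted p = 0.198). The low-level miR-1468, singled out after its values were seen, was at 1.23, 2.31 and 2.61 normalised CPM at day 60 and 8.72, 3.71 and 11.4 at day 360 (log2 fold change 1.95 ± 0.65, SE; adjusted p = 0.0849). All of these were without overlap between the ages, which picking them by a low p made likely. Over all tested miRNAs 11.2% were higher and 14.9% lower without overlap. In the alternatives miR-7857-3p passed in 7 of 27, miR-22-3p in 6, miR-29a and miR-339-3p in 4, miR-378b-3p in 3 and miR-339-5p in 2. miR-1468 passed in 1 of the 26 that tested it. The other arm of miR-22, miR-22-5p, and the cluster partner of miR-29a, miR-29b, overlapped between the ages (log2 fold changes -0.26 ± 0.49 and -0.54 ± 0.83, SE).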

How the data were processed

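Small RNA of peripheral blood from domestic pigs was sequenced at 5 ages with 3 libraries each. Per the labels' protocols, extraction used the mirVana kit and library preparation was standard for Illumina. Per the submitters' processing notes, CASAVA 1.8.2 and HISAT2 2.0.4 were used. What counted the reads, the miRNA annotation and the build: not given in the sources used here. No miRNA sequences are printed. The deposited counts are whole numbers per miRNA. The TPM values the authors deposited hold each miRNA's share of its library with no length term, and served only as an alternative.

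R 4.3.3 and edgeR 4.0.16 were used for the counts. A low-count filter (filterByExpr grouped by age, at least 10 counts, total of 15) kept 215 of 293 miRNAs. Of the 78 not tested, 55 had at least 1 count in the 6 libraries and 23 had none. Libraries were scaled by TMM. All 15 libraries entered a quasi-likelihood model with a coefficient for each age, day 360 was contrasted with day 60 (2-sided), and p-values were adjusted by Benjamini-Hochberg over all 215. Each SE is the absolute log2 fold change over the root of F. Alternatives used limma 3.58.1 and DESeq2 1.42.0, other scalings, filters and libraries, and a replicate block. The fit was tested on simulated data.

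Named were all called miRNAs, up to 12 higher and 12 lower with an unadjusted p under 0.05 and a mean level of 10 CPM or more at day 60 or day 360, the 10 most abundant, up to 4 of each list, and some arm or cluster partners. The partners miR-221-5p, miR-222, miR-22-5p and miR-29b were added after their values were seen, and no alternatives were computed for them. miR-30c-3p, miR-18b, miR-126-3p, miR-184, miR-1468, miR-148b-3p, miR-2320-3p, miR-2320-5p and miR-455-3p, and the ratios within libraries, were singled out after their values were seen. The members and lists were chosen with earlier results of these data known. Of the 293, 272 matched a miRNA gene in the RefSeq gene table of assembly Sscrofa11.1, which served only for names and neighbours (within 10 kb). No molecular identifiers are mentioned, so intervals cover counting error only. Replicates are stated to be biological, without saying more. The p-values set each change against the spread between libraries of the same age, estimated over all 15 libraries.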

Additional observations from a re-analysis of the deposited data

How the results depend on the processing

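The number of called miRNAs, 7 as reported, was the least stable result. It was 23 on library totals (3 higher, 20 lower), 22 with DESeq2 (8 higher, 14 lower), 19 with limma on log2(TPM + 1) (2 higher, 17 lower), 4 with only the 6 libraries of both ages and 2 for a fold of at least 2. limma on log2(TPM + 10) also called 7, of which 1 was higher and 6 lower. With 1 library left out the count lay between 1 (without day 60 replicate 1, miR-30a-5p alone, or day 360 replicate 3, miR-206 alone) and 22 (without day 0 replicate 3).

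The 7 called miRNAs kept their direction under all 27 alternatives that gave a value. Alternatives were computed for 63 named miRNAs, and 17 of them, none called, reversed in at least 1. Calls were gained by 19. On library totals and with limma on log2(TPM + 1) and log2(TPM + 10), the changes were -0.11, -0.046 and -0.047 for miR-499-5p, -0.20, -0.21 and -0.21 for let-7a, -0.50, -0.63 and -0.63 for miR-486, -0.60, -0.59 and -0.59 for miR-30d, -0.38, -0.91 and -0.89 for miR-30e-5p, -0.17, -0.73 and -0.70 for miR-20a, -0.076, -0.051 and -0.033 for miR-100, -0.087, -0.086 and -0.081 for miR-125b, -0.70, -0.90 and -0.76 for miR-144, -0.30, -0.31 and -0.31 for miR-150, -0.055, -0.13 and -0.12 for miR-151-5p, and -0.077, -0.20 and -0.19 for let-7c. With limma miR-7 was at -0.19 under both pseudocounts, and miR-122 at -0.13 with log2(TPM + 1). With 1 library left out, miR-30e-5p ranged from -0.95 to 0.72, miR-20a from -0.83 to 0.92, miR-92a from -0.46 to 0.22, miR-486 from -0.33 to 0.68, miR-30d from -0.044 to 0.29, miR-17-5p from -0.80 to 0.17, miR-144 from -0.78 to 0.38 and miR-122 from -0.52 to 1.56. The libraries that turned these directions were day 360 replicate 2 (miR-30e-5p, miR-20a, miR-92a, miR-144, miR-122), day 360 replicate 3 (miR-486, miR-30d, miR-17-5p), day 60 replicate 2 (miR-30d), day 60 replicate 3 (miR-92a, miR-144), day 360 replicate 1 (miR-92a), and day 30 replicate 3 and each library of day 180 (miR-144, at -0.038). With DESeq2 and its size factors miR-92a was at 0.017 in both fits, and without the miRNAs over 10% of a library let-7g was at 0.057. The cause of these reversals was not tested.

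Same-numbered libraries of both ages correlated in their deviations at -0.0211, -0.258 and 0.409, and not every library correlated best with its own number. The deviations within an age are not independent with 3 libraries each. These values therefore cannot show whether the replicate numbers pair the libraries. With the replicate number as a block, 5 miRNAs were called, without miR-10a-5p (adjusted p = 0.0661) and miR-151-3p (0.0540), and miR-144 stood at -0.047.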

Other observations

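Both arms were tested for 35 hairpins, and their log2 fold changes between day 60 and day 360 had the same sign in 26. The median absolute difference between the arms was 0.515, and it exceeded 2 for miR-2320 and miR-455. miR-2320-3p was at 70.3, 111 and 111 normalised CPM at day 60 and at 241, 53.3 and 480.4 at day 360, while miR-2320-5p was at 95.8, 153 and 109 against 59.0, 54.3 and 20.01. Inside the libraries the log2 ratio of the 3p to the 5p arm was -0.446, -0.470 and 0.0314 at day 60 and 2.03, -0.0262 and 4.59 at day 360. Replicate 2 of day 360 had a ratio near those of day 60, and neither arm passed the test (edgeR adjusted p = 0.334 for the 3p arm and 0.173 for the 5p arm). miR-455-3p had 27 counts over the day 60 libraries and 1 over those of day 360, a normalised day 60 level 16.9 times that of day 360 (95% exact Poisson interval 2.78 to 691, counting error only), and missed the threshold (edgeR adjusted p = 0.0578).

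miR-184, a miRNA of lens and other epithelia that was not tested, had 90 counts in day 360 replicate 3 and between 3 and 6 in the other 5 libraries compared. The summed level of the 13 listed miRNAs of the DLK1-DIO3 cluster stayed between 0.327 and 2.57 normalised CPM in the 6 libraries.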
